A study of Homo sapiens with 6 samples.

Results

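Receptor tyrosine kinases pass growth factor signals from the cell surface to the RAS, PI3K and STAT pathways, and several of them drive lung adenocarcinoma or its escape from targeted drugs. Ligand binding brings receptors together, the kinase domains then phosphorylate each other, and adaptor proteins dock on the phosphorylated tails. Alternative splicing is known to change what these receptors do, by altering their ligand-binding immunoglobulin domains, the stretch next to the membrane, or the tail.

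The splicing of 8 receptors was examined, namely EGFR, ERBB2 and ERBB3 of the ERBB family, MET, AXL, INSR and IGF1R of the insulin receptor family, and FGFR1. The members were all splicing events listed for these genes with a mean of at least 10 junction reads over the 6 libraries. 61 of the 70 listed events passed, among 66396 tested of 78224 read over all genes. They lay in 6 receptors, with 18 events in AXL, 22 in FGFR1, 10 in MET, 6 in ERBB2, 4 in ERBB3 and 1 in IGF1R. EGFR and INSR were not analysed here. Of the 61 events, 44 were skipped exons (SE), 8 mutually exclusive exon pairs (MXE), 4 alternative 3′ splice sites (A3SS), 2 alternative 5′ splice sites (A5SS) and 3 retained introns (RI). Events of the same receptor often share junctions, so they are not independent of each other, and 23 of the 61 had the same alternative exon or site as another event of the same type.

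All libraries came from NCI-H1975, an established human lung adenocarcinoma cell line with mutant EGFR. The SAM68 group had received the PCDNA3.1-SAM68 plasmid at 2 µg per well for 48 h, and the control group had received the empty PCDNA3.1 plasmid in the same way. Each group had 3 libraries, described by the study as biological replicates. SAM68, encoded by KHDRBS1, is a STAR family RNA-binding protein that regulates splicing, and the study asked which splicing events its overexpression changes. The transfection was transient, and the plasmid promoter expressed SAM68 in cells that also kept their own gene.

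The skipped exon tables held 16951876 to 19737729 junction reads per library. KHDRBS1 had 318.5 ± 8.91 junction reads per 1000000 reads of the best read events of all genes (rpm) in control and 1255 ± 23.1 rpm in SAM68 libraries (SD, n = 3), a log2 difference of 1.98 (adjusted p = 1.16e-21, limma), in the direction of the labels. Of the marker genes of other cell types, CD68 was read at 96.2 rpm in control and 99.98 rpm in SAM68 libraries, DCN stayed under 10 reads, and no event of PTPRC, CD3E, PECAM1, VWF, CDH5, COL1A1, COL1A2 or PDGFRB was in the tables used. Among epithelial markers KRT18 stood at 482 and 525 rpm, KRT8 at 519.6, 253 and 236 rpm in the single control libraries and 248, 235 and 229.5 rpm in the SAM68 libraries, with control replicate 1 alone high, KRT7 at 4.48, 3.02 and 3.51 rpm against 1.26, 1.84 and 2.20 rpm (log2 difference -0.89, adjusted p = 0.383, limma), and MUC1 and NAPSA at means under 4 rpm, whereas EPCAM, KRT19, CDH1, CLDN4 and NKX2-1 had no event there. The mesenchymal marker VIM was read at 4148 and 4135 rpm. In these bulk libraries a smaller share of cells expressing a gene and less RNA per cell cannot be told apart.

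4 alternative segments with a known or frame-keeping effect on the receptor are printed below to show what is included or left out. Capitals mark the alternative exon or the added part, and lower case the neighbouring bases, on the plus strand of GRCh38. They are exon 10 of AXL at chr19:41239694-41239720, exon 16 of ERBB2 at chr17:39719787-39719834, the part that the upstream 3′ splice site adds to exon 14 of IGF1R at chr15:98929558-98929560, and the part that the upstream 3′ splice site adds to exon 10 of MET at chr7:116759337-116759390. Their lengths of 27, 48, 3 and 54 nucleotides (nt) are all multiples of 3.
AXL exon 10: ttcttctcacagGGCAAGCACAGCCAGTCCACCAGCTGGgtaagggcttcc
ERBB2 exon 16: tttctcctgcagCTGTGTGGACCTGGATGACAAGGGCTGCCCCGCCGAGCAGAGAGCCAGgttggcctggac
IGF1R exon 14, added part: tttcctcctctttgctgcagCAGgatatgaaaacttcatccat
MET exon 10, added part: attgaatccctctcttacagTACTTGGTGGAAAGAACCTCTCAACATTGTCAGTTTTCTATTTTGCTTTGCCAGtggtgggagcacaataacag
Each alternative part starts after an AG, as 3′ splice sites do, and the cassette exons of AXL and ERBB2 end before a GT.

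No receptor event changed its splicing by the criteria of the comparison. Inclusion was measured as percent spliced in (PSI), the share of length-normalised junction reads that support the inclusion form, and a call required a difference of 10 percentage points or more and an adjusted p below 0.05. 0 of the 61 receptor events were called, where 62 of all 66396 events were (0.0934%). A count of 0 among 61 does not stand apart from that background. At an unadjusted p under 0.05 there was 1 receptor event, exon 13 of AXL, against 3950 of all events, and the smallest adjusted p of a receptor event was 0.663. An analysis by limma on the logit of PSI called 0 receptor events and 3 of all events (0.00452%), and a test without a shared dispersion called 0 and 2 (0.00301%), so that these alternatives called almost nothing in any gene. The PSI ranges of both groups were apart in 1 receptor event, the pair of AXL exons 11 and 12, against 6.12% of all events with reads in every library. The median size of the difference was 0.818 points over the 61 events, many of them deeply read AXL events, and 1.24 points over all events, with 27 receptor events higher and 34 lower in SAM68 libraries. The largest was 18.2 points, in ERBB3, and all the differences of 10 points or more were uncalled ones in ERBB3, ERBB2 and FGFR1.

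**Figure D1:**
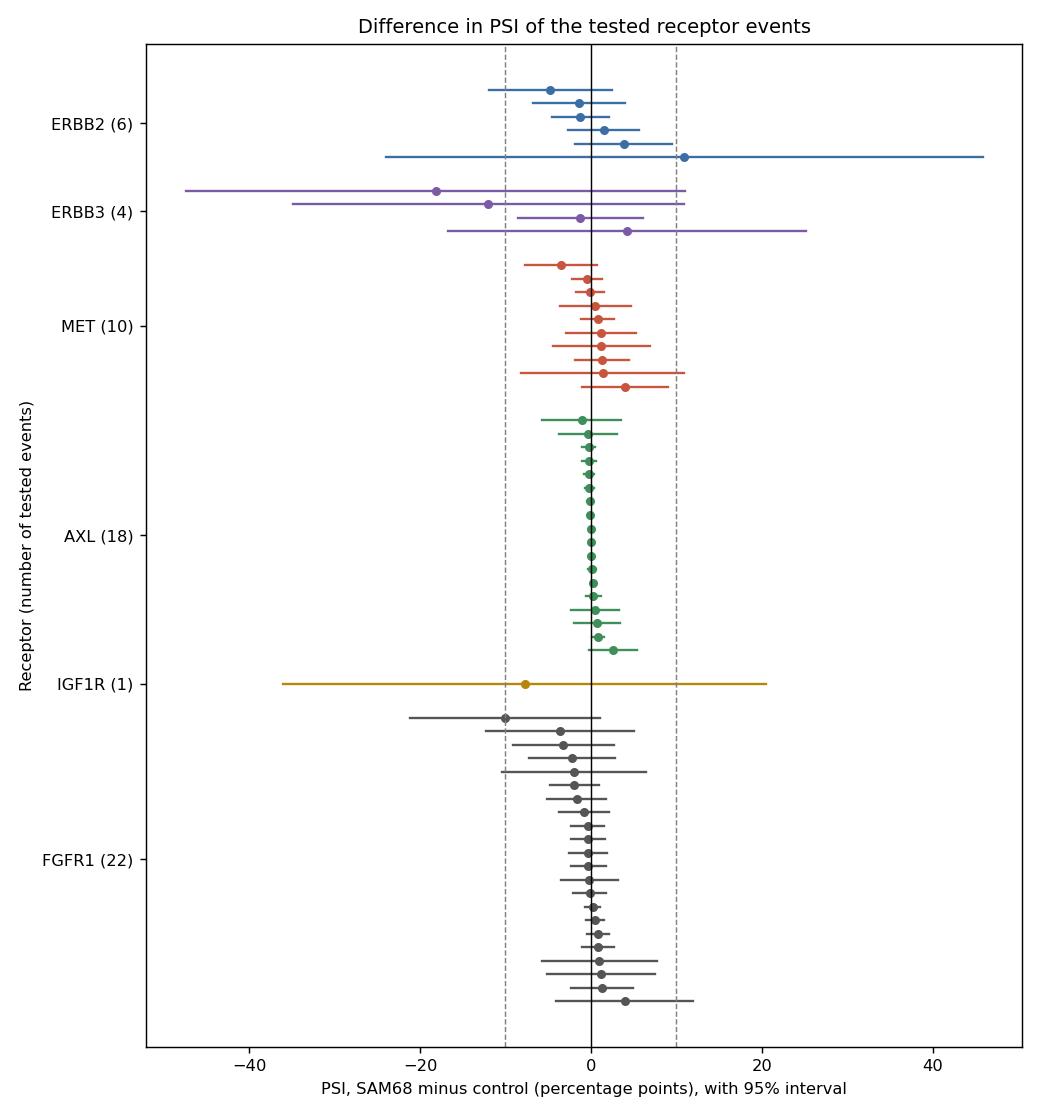
The difference in PSI (SAM68 minus control, in percentage points, horizontal axis) is shown for the 61 tested events, grouped by receptor on the vertical axis; points are differences, lines are 95% intervals and the dashed lines mark 10 points either way. All 18 AXL intervals lie within the dashed lines, and the long intervals belong to ERBB3, IGF1R, a 5′ event of ERBB2 and a few events of FGFR1.

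How much change the reads could have shown differed strongly between receptors. The 95% interval of the difference lay wholly within 10 points either way for 50 of the 61 events (82%), compared with 65.3% of all events. This held for 18 of 18 events of AXL, 9 of 10 of MET, 18 of 22 of FGFR1, 4 of 6 of ERBB2, 1 of 4 of ERBB3 and 0 of 1 of IGF1R. The interval reached a median of 0.6 points either side for the 17 events with over 500 mean reads, 3.87 points for the 32 events with 50 to 500 reads and 8.23 points for the 12 events with fewer than 50. For AXL the reads therefore bounded the changes closely, whereas in 3 of the 4 ERBB3 events and in the IGF1R event the interval reached beyond 10 points. The intervals are not adjusted for the number of events, so they do not tell which events could have been called. The intervals cover the count error and the spread shared by events of a type, and 15 of the 61 events had a mean PSI between 5% and 95%, with 30 above and 16 below that range.

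**Figure D2:**
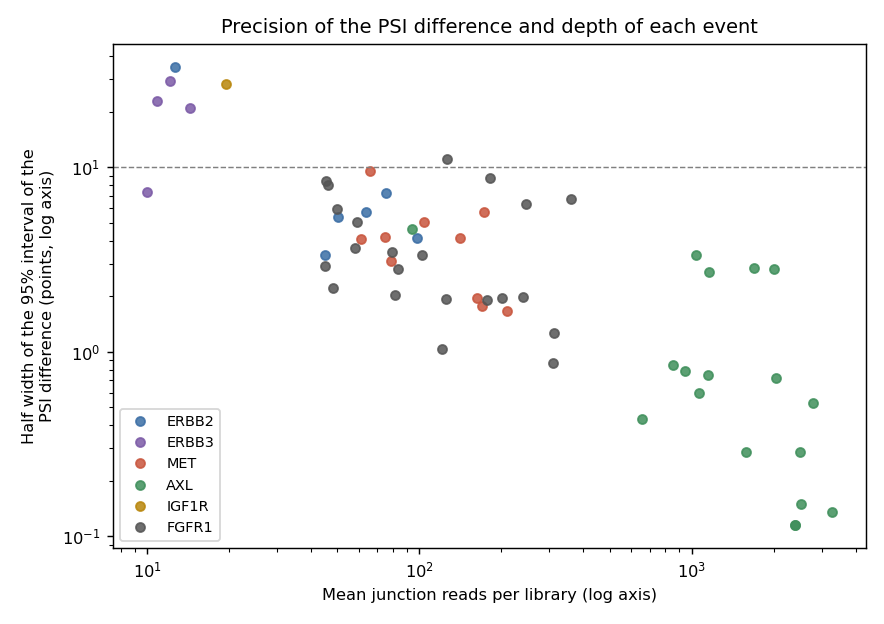
Each point is 1 of the 61 events; the horizontal axis gives its mean junction reads per library and the vertical axis how far the 95% interval of the PSI difference reached either side in points, both on log axes, with the dashed line at 10 points. AXL events sit at the lower right, with up to 3280 mean reads, and ERBB3 and IGF1R events at the left, with 10 to 19.5.

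ERBB2, the ERBB family member with no known ligand, was read thinly, at 12.7 to 98.0 mean reads per event. Its exon 16 (the sequence above) encodes part of the extracellular stretch next to the membrane, and the form without it is a known oncogenic variant. Exon 16 gave 104, 81 and 75 inclusion reads in control and 56, 68 and 56 in SAM68 libraries, beside skipping reads of 1, 3 and 0 against 9, 0 and 1. PSI was therefore 98.7%, 95.2% and 100% in control and 82.05%, 100% and 97.6% in SAM68 libraries, so that a single SAM68 library was low and the groups overlapped. The difference was -4.74 points (95% interval -11.95 to 2.46, adjusted p = 0.699, exact permutation p = 0.7). Without SAM68 replicate 1 it was 0.84 points, the opposite direction.

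The most read ERBB2 event, exon 13, had PSI of 98.5 ± 1.29% in control and 100 ± 0% in SAM68 libraries (SD, n = 3). Near the 5′ end, an upstream 3′ splice site that lengthens an exon outside the canonical transcript had PSI of 33.3%, 37.5% and 40% in control and 42.9%, 69.2% and 31.4% in SAM68 libraries, from a mean of 12.7 reads. The difference of 10.9 points had an interval of -24.0 to 45.8 points, and without 1 library it ranged from 0.20 to 19.1 points. A 5′ splice site that adds 63 nt to exon 2 had PSI of 4.06%, 3.83% and 0% in control and 2.57%, 15.9% and 0.883% in SAM68 libraries. SAM68 replicate 2 alone was high, and the difference of 3.81 points was -0.90 without it. A 117-nt exon after exon 9 had a mean PSI of 2.06% in control and 0.818% in SAM68 libraries. Neither was called (adjusted p = 0.822 and 0.699).

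ERBB3, the kinase-impaired partner of ERBB2 and a receptor for neuregulins, had 10 to 14.3 mean reads in its 4 tested events. Its exon 11 gave 10, 13 and 9 inclusion reads in control and 15, 14 and 3 in SAM68 libraries, and the only skipping read came from SAM68 replicate 3. An exon that overlaps exon 1 gave 10, 17 and 14 inclusion reads in control and 15, 5 and 9 in SAM68 libraries, and its 3 skipping reads came from SAM68 replicate 2. Mean PSI was thus 100% in control for both exons, and 88.0% and 81.8% in SAM68 libraries, differences of -12.0 (interval -34.9 to 10.9) and -18.2 points (interval -47.39 to 11.03). Without the library that held the skipping reads, the difference was 0 in each. The control libraries had 0 skipping reads among 32 for exon 11, which allows a share of up to 9.38%, and 0 among 41 for the exon at the start, which allows up to 7.32%. These limits are shares of raw reads before length normalisation, not of PSI, and cover counting error only. The best read ERBB3 event, exon 13, had 1 skipping read in all, in control replicate 3. Retention of the intron between exons 14 and 15 had a mean PSI of 1.24% in control and 0% in SAM68 libraries.

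MET, the receptor of hepatocyte growth factor, had no called splicing event, with 9 of its 10 intervals within 10 points either way, and its reads had a lower mean in SAM68 libraries in all 10 tested events. Exon 14 of MET, whose skipping is a known driver in lung adenocarcinoma, matched no event in the tables used and was not analysed here. A 50-nt exon between exons 1 and 2, coding in another annotated transcript, gave 3, 10 and 4 inclusion reads in control and 8, 9 and 4 in SAM68 libraries. Its skipping junction, which joins exon 1 to exon 2, gave 127, 126 and 129 reads in control and 61, 70 and 70 in SAM68 libraries. PSI was 1.69%, 5.45% and 2.20% against 8.70%, 8.54% and 3.99%, with 1 SAM68 library inside the control range. The difference of 3.96 points (interval -1.09 to 9.01) was not called (adjusted p = 0.699, exact permutation p = 0.2). The higher PSI went with fewer skipping reads, whereas the inclusion reads averaged 5.67 ± 3.79 and 7 ± 2.65 (SD, n = 3).

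Most of the other MET exons were included in nearly all or nearly none of the reads. The 54 nt that lengthen exon 10 (the sequence above), which lie in the extracellular part of the receptor, had PSI of 1.04 ± 1.81% in control and 2.33 ± 2.57% in SAM68 libraries (SD, n = 3). The interval of that difference was -1.83 to 4.41 points, and without SAM68 replicate 3 the difference was -0.09 points. When the whole long form of exon 10 was counted as a cassette, PSI was 94.3% and 95.7%, since its inclusion reads include the junction to exon 11 that both forms of exon 10 use. A 76-nt exon between exons 2 and 3 stood at 1.36%, 12.4% and 3.15% in control and 0.777%, 3.81% and 1.83% in SAM68 libraries, and its difference of -3.51 points was -0.11 without control replicate 2. Exon 19, in the kinase domain and the most read event of MET, had PSI of 99.7 ± 0.475% and 99.6 ± 0.628% (SD, n = 3).

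**Figure D3:**
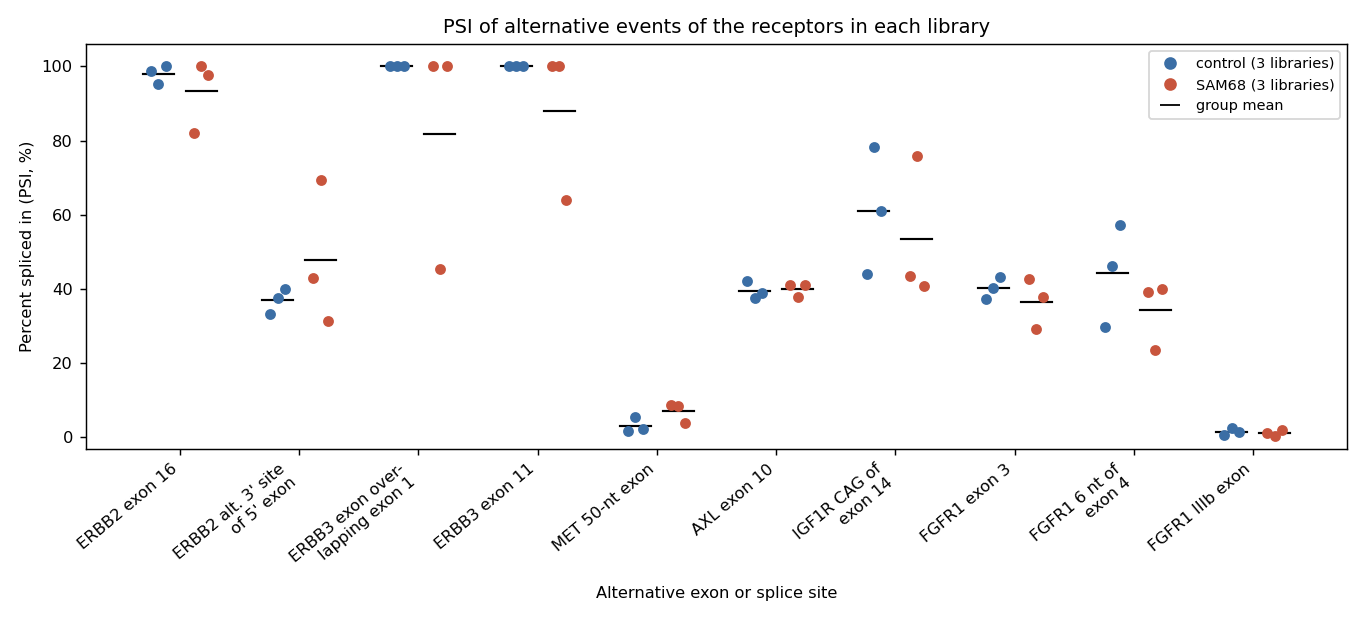
PSI in percent (vertical axis) of 10 alternative exons and splice sites of the receptors (horizontal axis); each point is a library, blue for control and red for SAM68, and black bars are group means. The points of both groups overlap in each of the 10 events, AXL exon 10 stays between 37.58% and 42.05% in the 6 libraries, and 1 SAM68 library is low for each of ERBB2 exon 16 and both ERBB3 exons.

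AXL, the receptor of GAS6 and a known route of resistance to EGFR inhibitors, gave the most precise values. Its exon 10 (the sequence above) is the known alternative exon of this gene, in the extracellular stretch next to the membrane. Inclusion reads of exon 10 were 755, 695 and 739 in control and 870, 667 and 746 in SAM68 libraries, and skipping reads were 867, 962 and 967 against 1041, 917 and 888. PSI was 42.05%, 37.58% and 38.91% in control and 41.05%, 37.74% and 41.18% in SAM68 libraries. Both forms of AXL were thus well represented in every library, and the groups lay on top of each other. The difference of 0.48 points had an interval of -2.38 to 3.33 points (adjusted p = 0.840, exact permutation p = 0.9).

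The AXL event whose groups did not overlap was the pair of exons 11 and 12, with PSI of exon 11 at 41.5%, 39.9% and 43.8% in control and 44.4%, 44.2% and 44.2% in SAM68 libraries. The difference was 2.56 points (interval -0.24 to 5.36, adjusted p = 0.663), or 1.65 points without control replicate 2 and 3.61 without control replicate 3, and the exact permutation p of 0.1 is the smallest that 3 against 3 libraries can give. Both exons are in the canonical transcript, so the pair is not an exclusive choice. In its most read cassette event, exon 11 was included at 100% in control and 99.97% in SAM68 libraries. Exon 12 stood at 100% and 99.90% in its own. The exon 11 reads of the pair equalled the skipping reads of exon 10 in 5 of 6 libraries and differed by 4 reads in the other. Its exon 12 reads were those of the pair of exons 10 and 12 in all 6. In that second pair the PSI of exon 10 was 10.7 ± 1.86% in control and 11.3 ± 1.60% in SAM68 libraries (SD, n = 3). Exon 10 is canonical too, so this value is a share against reads of exon 12 and not an inclusion level. The inclusion level of exon 10 between exons 9 and 11 is the one given above. As a cassette between exons 9 and 13, exon 10 had a mean PSI of 97.7% in control and 96.6% in SAM68 libraries.

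Exon 13 of AXL had the smallest p of the receptor events. Its skipping reads were 9, 12 and 0 in control and 2, 0 and 2 in SAM68 libraries, beside 1080, 1272 and 1143 inclusion reads in control and 1300, 1008 and 1072 in SAM68 libraries. PSI was 99.0 ± 0.879% and 99.8 ± 0.172% (SD, n = 3), a difference of 0.81 points (interval 0.07 to 1.56) that did not hold after adjustment (adjusted p = 0.699) and was 0.52 points without control replicate 2 and 1.32 points without control replicate 3, and control replicate 3, with no skipping read, lay above 2 of the SAM68 libraries. The most read event, exon 19 of the kinase domain, had 4 skipping reads in all beside 3117 to 3507 inclusion reads per library. Of the 18 AXL events 13 had a mean PSI above 95%, and their exons lie in both the extracellular and the kinase part of the receptor.

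IGF1R, the receptor of insulin-like growth factors, had 1 event, the known CAG variant at the start of exon 14 (the sequence above). The upstream site, which keeps the CAG, gave 8, 11 and 19 reads in control and 7, 16 and 7 in SAM68 libraries. The downstream site gave 10, 3 and 12 against 9, 5 and 10. PSI of the CAG ranged from 44.1% to 78.3% within the control group and from 40.8% to 75.9% within the SAM68 group, so that the spread in each group was larger than the difference between them. The difference of -7.74 points had an interval of -36.0 to 20.5 (adjusted p = 0.928), and without control replicate 2 it was 0.87 points.

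FGFR1 lies on the minus strand of chromosome 8 and had the largest number of events. It has immunoglobulin domains outside the cell, and its known variants drop the first of these domains, encoded by exon 3, or exchange the IIIb and IIIc versions of the third, which sets the choice of fibroblast growth factors. Exon 3, of 267 nt, gave 76, 118 and 107 inclusion reads in control and 129, 73 and 104 in SAM68 libraries, with 64, 88 and 70 skipping reads against 87, 88 and 85. PSI was 37.25%, 40.14% and 43.32% in control and 42.57%, 29.32% and 37.96% in SAM68 libraries. Among transcripts that join exon 2 to exon 4 with or without exon 3, the form without it was therefore the more common one in all 6 libraries, and the difference of -3.62 points (interval -12.3 to 5.08, adjusted p = 0.699) was within the spread of each group. Without SAM68 replicate 2 it was 0.03 points.

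The IIIb exon of FGFR1 gave 2, 7 and 3 reads in control and 3, 1 and 4 in SAM68 libraries, against 199 to 279 and 190 to 255 reads of the IIIc exon. Its PSI of 1.58 ± 0.825% and 1.21 ± 0.836% (SD, n = 3) left the IIIc exon with nearly all reads of the pair in both groups, with a difference of -0.37 points (interval -2.35 to 1.60). Mesenchymal cells are known for the IIIc form and epithelial cells for the IIIb form.

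The largest difference in a receptor event with over 50 reads was at the end of exon 4 of FGFR1, where a 5′ splice site adds 6 nt in the linker between the first and the second immunoglobulin domain. Reads of the longer form were 35, 64 and 72 in control and 66, 24 and 48 in SAM68 libraries, and reads of the shorter form were 80, 72 and 52 against 99, 75 and 69. PSI was 29.6%, 46.1% and 57.1% in control and 39.1%, 23.6% and 40.1% in SAM68 libraries, and the groups overlapped. The difference was -10.04 points (interval -21.2 to 1.08, adjusted p = 0.822, exact permutation p = 0.4), and it ranged from -17.4 to -3.62 points when 1 library was left out. Retention of the intron after this exon was 4.19 ± 2.03% and 2.52 ± 1.08% for the shorter form of the exon. For the longer form it was 1.03 ± 0.402% and 0.709 ± 1.23% (SD, n = 3 throughout). The intron of the shorter form starts with the 6 nt of the longer form, so reads into them need not come from a retained intron.

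The most read pair of FGFR1 exons, 11 and 12 of the kinase domain, are both part of the canonical transcript, and the share of exon 11 was 48.0 ± 4.01% and 49.0 ± 3.91% (SD, n = 3). As cassettes, exon 11 was included at 99.8% in control and 100% in SAM68 libraries, and exon 12 at 99.2% and 100%. The pair of exons 2 and 3, also both canonical, stood at 81.1 ± 1.74% and 82.3 ± 0.996% for exon 2 (SD, n = 3). That value is a share between the exons of the pair, not an inclusion level. As a cassette between exons 1 and 4, exon 2 stood at 99.7% in control and 99.3% in SAM68 libraries. Between exons 1 and 3 it stood at 99.2% and 100%. A 144-nt exon between exons 3 and 4, coding in another transcript, was a minor form in both events that contain it, at means of 6.78% and 2.86% in control and 3.54% and 0.931% in SAM68 libraries, and neither event was called (adjusted p = 0.699 in both). In the first of these events the libraries ran from 1.10% to 12.1% in control and from 0% to 7.41% in SAM68, and the difference of -3.23 points was -0.58 without control replicate 3.

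Junction reads of each receptor's best read event stood in for its transcript level, since the tables hold no counts per gene. For reads a call required a 2-fold difference or more and an adjusted p below 0.05 (limma). 0 of the 6 receptors met this, where 5 of 10147 genes did (0.0493%), and 1 receptor, ERBB2, had an unadjusted p under 0.05, as 12.1% of all genes did. AXL had 550.2, 543.5 and 551.5 rpm in control and 553.8, 577.1 and 571.8 rpm in SAM68 libraries, FGFR1 60.1 ± 2.56 and 62.3 ± 3.52 rpm (SD, n = 3), both with a log2 difference of 0.05. MET had 38.8, 38.5 and 36.3 rpm against 33.5, 32.1 and 33.6 rpm, a log2 difference of -0.19 (SE 0.12, adjusted p = 0.562). The groups did not overlap in AXL and MET, 2 of 6 receptors, and in 16.8% of all genes.

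Among the best read events of the 6 receptors, that of ERBB2 had the largest difference in reads. Its exon 13 had 57, 82 and 99 reads in control and 160, 114 and 76 in SAM68 libraries. The log2 difference of 0.58 (SE 0.22, adjusted p = 0.250) did not pass the test, and SAM68 replicate 3, at 13.9 rpm, lay below control replicate 3, at 16.6 rpm. The reads of ERBB2 events did not all point one way, with 5 of 6 higher in SAM68 libraries and exon 16 lower, at a log2 difference of -0.38 (adjusted p = 0.479). IGF1R had 3.50 ± 1.52 and 3.17 ± 0.666 rpm, and ERBB3 1.98 ± 0.685 and 2.93 ± 1.29 rpm (SD, n = 3). Scaled to the length of the junction windows, the control levels ran from AXL at 482 length-normalised rpm, through FGFR1 at 56.0, MET at 33.4, ERBB2 at 11.7 and IGF1R at 6.11, to ERBB3 at 1.79. In this order the ranges of ERBB2 and IGF1R over the 6 libraries overlapped (8.64 to 22.2 and 3.87 to 9.03), IGF1R and ERBB3 met at 3.87, and the others were apart.

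**Figure D4:**
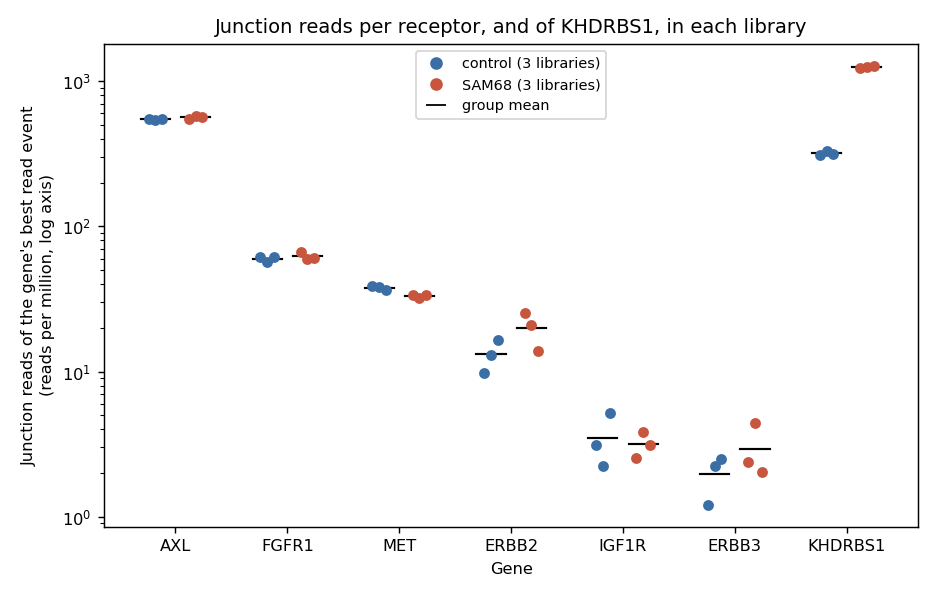
Junction reads of the best read event of each gene in rpm (vertical log axis) for the 6 receptors and KHDRBS1 (horizontal axis); each point is a library, blue for control and red for SAM68, and black bars are group means. KHDRBS1 rises from 318.5 to 1255 rpm, while the receptors keep their order from AXL down to ERBB3 apart from overlaps at the low end.

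The reads of MET differed most at the 5′ end of the gene. The event of exons 1 and 2 had 22.4, 21.6 and 22.25 rpm in control and 10.9, 14.5 and 13.6 rpm in SAM68 libraries, a log2 difference of -0.75 (SE 0.17, adjusted p = 0.0449, limma over all tested events). This was the only receptor event whose reads passed that test, where 275 of all tested events passed in either direction (0.414%), 196 of them lower in SAM68 libraries (0.295%), and the test was added after the data were seen. The junction of exon 1 to exon 2 alone had 21.2 ± 0.987 rpm in control and 11.8 ± 1.86 rpm in SAM68 libraries (SD, n = 3). The cassette event of exon 2, which shares that junction, had 39.65, 29.28 and 35.8 rpm against 23.5, 21.65 and 25.7 rpm and a log2 difference of -0.55 (adjusted p = 0.0873). The 8 events further downstream differed by -0.35 to -0.07 on the log2 scale, with adjusted p from 0.317 to 0.945. Reads of the event of exons 1 and 2 were 0.584 ± 0.0261 of those of the exon 19 event in control and 0.394 ± 0.0636 in SAM68 libraries (SD, n = 3), a ratio chosen after these reads were seen and given as a description. The event at the 5′ end passed by adjusted p alone, since its difference was smaller than the 2-fold limit set for genes. This pass did not withstand a change of scaling to the median of ratios (adjusted p = 0.0686), nor the loss of control replicate 1, 2 or 3 (0.219, 0.144 and 0.146). It was also lost without SAM68 replicate 1 or 3 (0.184 and 0.0572), whereas it held without SAM68 replicate 2 (0.0368). The log2 difference of the event lay between -0.84 and -0.64 throughout.

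**Figure D5:**
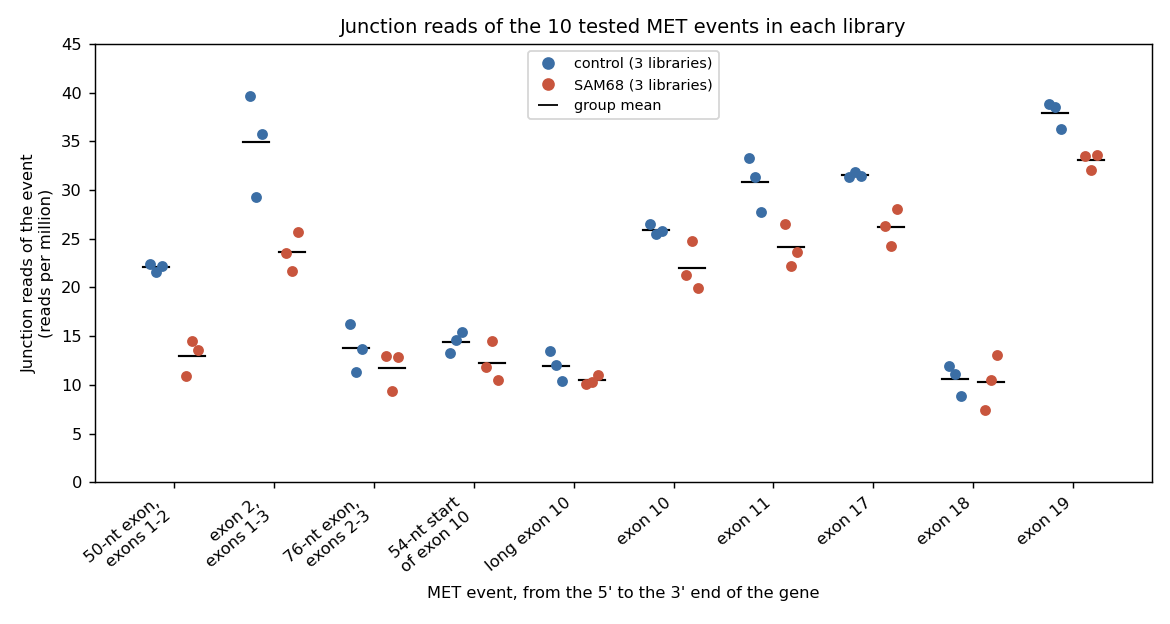
Junction reads of the 10 tested MET events in rpm (vertical axis), ordered from the 5′ to the 3′ end of the gene (horizontal axis); each point is a library, blue for control and red for SAM68, and black bars are group means. The largest gaps between the groups are at the first and second events from the left, which share the junction of exons 1 and 2, and the groups overlap at the 76-nt exon, at the 54-nt start of exon 10 and long exon 10, and at exon 18.

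The genes around the receptors were described by lists of 14 ligands, 32 other receptor tyrosine kinases, 32 adaptors and signal transducers and 22 inhibitors and trafficking factors. 63 of these 100 genes had tested events, and 3 of their 377 events were called (0.796%), beside 0.0934% of all events. That count was 0 with an unshared dispersion, when limma was fitted to logit PSI, and without SAM68 replicate 1 or 3, and 1 without control replicate 3. No event of the 6 ligands or the 9 other receptors with tested events was called. Junction reads of the 63 genes gave 0 calls by limma and 12 genes (19%) with an unadjusted p under 0.05, beside 1224 of all 10147 genes (12.1%), with a median log2 difference of -0.04.

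The called event among the adaptors was a pair of exons 2 and 3 of GRB2, which couples activated receptors to SOS and RAS. Reads of exon 2 were 390, 375 and 428 in control and 288, 253 and 230 in SAM68 libraries, and those of exon 3 were 142, 228 and 204 against 192, 192 and 181. PSI of exon 2 was 70.6%, 58.95% and 64.7% against 56.7%, 53.5% and 52.6%, a difference of -10.5 points (interval -16.1 to -4.84, adjusted p = 0.0400). Both exons belong to the canonical transcript of GRB2, and the call was lost without control replicate 1 (adjusted p = 0.497) or 3 (0.133) and without SAM68 replicate 1 (0.0588), 2 (0.136) or 3 (0.289), with differences of -7.55 to -11.69 points in these fits. It was also lost, at the same difference, with adjustment over all 5 event types (0.114), with an unshared dispersion (0.895) and when limma was fitted to logit PSI (0.873). The total reads of the pair had a log2 difference of -0.33 (adjusted p = 0.0959).

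The other calls were both in USP8, a deubiquitinase that acts on endocytosed receptors, at the 5′ noncoding end of the gene. A 5′ splice site that lengthens exon 1 by 140 nt had PSI of 21.9%, 19.4% and 16.9% in control and 70.2%, 33.3% and 100% in SAM68 libraries (adjusted p = 0.00309). A 162-nt exon between exons 1 and 2 had 25.45%, 25.5% and 10.6% against 60%, 36.3% and 100% (adjusted p = 0.0160). Both events count the same skipping junction, with 41, 54 and 59 reads in control and 7, 29 and 0 in SAM68 libraries, so they rest on the same skipping reads. The inclusion reads, in contrast, were 23 to 26 in control and 29 to 33 in SAM68 libraries for the longer exon 1, and 28, 37 and 14 against 21, 33 and 32 for the 162-nt exon, where the groups overlapped. The calls were lost without SAM68 replicate 1 (0.229 and 0.0930) or 3 (0.226 and 0.570), the second also without control replicate 3 (0.275). Without SAM68 replicate 1 the differences were 47.3 and 47.6 points, and without SAM68 replicate 3 they were 32.4 and 27.6 points, beside 48.5 and 44.9 points in all libraries. Both were also lost with an unshared dispersion (0.812 and 0.692) and when limma was fitted to logit PSI (0.920 and 0.896), where the SAM68 libraries had an SD of 33.4 and 32.2 points. Summing the reads of all events of the 162-nt exon brought its difference from 44.9 to 8.53 points.

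Letters of the sites that SAM68 is known to bind, TAAA and TTAA, and the hnRNP A1 site letters TAGGG were counted on the transcribed strand in the 34 distinct skipped exons of the receptors and in the 200 bases on each side. TAAA and TTAA can share bases where they adjoin. TAAA was in 17.6% of the receptor exons, 44.1% of the upstream and 38.2% of the downstream flanks, beside 30.8%, 59.7% and 60.4% for all 38685 distinct tested exons. TTAA was in 8.82%, 41.2% and 32.4% of the same windows, beside 26.5%, 60.9% and 59.8%, and TAGGG in 5.88%, 8.82% and 17.6%, beside 3.48%, 12.6% and 14.4%. AXL exon 10 and its flanks held none of these letters, and ERBB2 exon 16 had a TAGGG downstream. Exons differ in length, so the share within exons depends on it, and a match is a description of letters only.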

How the data were processed

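RNA of 3 control and 3 SAM68 libraries was sequenced in pairs. Per the submitters' processing notes and methods, reads were filtered with fastp 0.20.0, trimmed at the start and mapped to GRCh38 with HISAT2 2.1.0, and CASAVA 1.4 is also named. The authors then counted junction reads of each splicing event with rMATS. The rMATS version and gene annotation are not given in the sources used here. The deposited values are raw counts of reads for either form of an event, written as a list of 3 libraries per group, together with the effective length of each form. The authors' own p-values, FDR and inclusion differences are in the same tables and were not used. The headers number the lists without naming them, and list 1 was taken as control from the order of groups in the study's figures; the lists carry no replicate numbers, so a replicate number here is a place in the list. The lists of 275 events had been regrouped as large numbers. Of these, 163 could be divided into counts in only 1 way and were recovered, and 112 were left out, leaving 78224 events. All columns of values belonged to these samples.

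From these counts, PSI was computed per library with the effective lengths. For MXE events PSI refers to the exon that comes first in the transcript. Events with 10 or more reads on average were tested in all 6 libraries by a quasi-binomial model, with the dispersion shared within the event type by limma 3.58.1 (squeezeVar, R 4.3.3) and not taken below 1. The shared dispersions lay between 2.01 (RI) and 2.53 (MXE), with no weight on the event's own spread, so an event that varies more is tested against too small a spread. P-values were adjusted by Benjamini-Hochberg within each type over all events. The 95% interval is 1.96 standard errors either side. It covers counting error and the shared spread, and reads without molecular identifiers are not independent molecules. Reads per gene are those of its best read event, scaled to 1e+06 per library, and were tested with limma on log2(rpm + 0.5), where a low gene's difference is understated. A count model with edgeR had been planned for them, but the list format of the values did not pass the unit check and it was not run. Permutation tests over libraries were exact and two-sided. Exons and coordinates follow GENCODE's canonical transcripts and GRCh38. The scripts were tested on simulated data.

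The members, gene lists and tests were chosen with earlier results of these data known. Named events were those matching a known alternative exon, up to 3 events per receptor with mean PSI between 5% and 95% by most reads, the event with the smallest p and the one with the most reads per receptor, and any event called or with groups apart by at least 5 points. Other events given here were added for completeness after their values were seen. Alternatives tried were an unshared dispersion, limma on the logit of PSI, other read minimums, limits and length settings, adjustment over all types, summed SE events, another scaling and each library left out.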

Additional observations from a re-analysis of the deposited data

How the results depend on the processing

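The count of 0 called receptor events held under all 15 alternatives, as did the count of 0 receptors and 0 list genes called for junction reads under 10 alternatives, and the higher KHDRBS1 reads held in each of its 10. Events called in the pathway lists went from 3 to 0 with an unshared dispersion and to 0 when limma was fitted to logit PSI, and ranged from 0 to 3 when 1 library was left out. Receptor events whose reads had an adjusted p below 0.05, counted without the 2-fold limit, numbered 1 in the test over all libraries. That number went to 0 with the median of ratios and ranged from 0 to 1 without 1 library. The median of ratios shifted the scale of single libraries by -0.033 to 0.03 (log2). Leaving out 1 library turned the direction of 23 of the 61 receptor PSI differences, none of them called. For the 10 named by the rule the ranges were -0.37 to 1.35 points for the AXL pair of exons 10 and 12, -0.49 to 1.75 for AXL exon 10, -0.06 to 0.02 for AXL exon 19, -8.13 to 0.84 for ERBB2 exon 16, -1.1 to 3.11 for the FGFR1 pair of exons 11 and 12, -0.8 to 0.06 for the FGFR1 IIIb exon, -6.6 to 0.03 for FGFR1 exon 3, -19.01 to 0.87 for the IGF1R site, -3.08 to 4.24 for the long MET exon 10 and -0.36 to 0.27 for MET exon 19. The other 13 included the MET exon 2 cassette (-0.76 to 3.8 points) and an FGFR1 exon 3 event (-3.64 to 1.36 points). The log2 difference of IGF1R reads ranged from -0.32 to 0.21, and that of FGFR1 was -0.03 when only SE events were used for a gene. The cause of these changes was not tested. TMM and DESeq2 were not run, since they need counts in a form the unit check accepts. No paired analysis was possible because the lists carry no replicate numbers. Depth limits ERBB3 and IGF1R most, where the events had a mean of 10 to 19.5 reads.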
